A study of Canis lupus familiaris with 4 samples.

Results

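TWIST1 ChIP-seq peaks on dog chromosomes 14 and 17 are described here, all those of the authors' peak lists that start at 250 kb or beyond. There were 4873 such peaks in replicate 1 (2191 on chromosome 14 and 2682 on chromosome 17) and 4375 in replicate 2 (1984 and 2391), of 73701 and 60370 listed in all. They made up 6.61% and 7.25% of the lists. The 2 chromosomes were chosen by measured values of these lists: the input background at their peaks, which stood above that of the other autosomes, and the many peaks of chromosome 17. Background and density, and the fold enrichment that is computed from the background, are therefore given as descriptions with no test. The other 36 autosomes, with the same 250 kb left out at each start, are the yardstick throughout.

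Cells were MDCK, an epithelial line from dog kidney, made to express human TWIST1 constitutively, kept under puromycin and described as mesenchymal by the labels. Chromatin of these cells was fixed in 1% formaldehyde for 10 min, sheared, and either precipitated with a monoclonal antibody against TWIST1 (2 libraries) or sequenced as input without precipitation (2 libraries), in 2 independent experiments. All 4 libraries carry the transgene, and parental MDCK cells were not analysed here. The labels name no promoter for the transgene, and they give an antibody lot for replicate 2 only.

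TWIST1 is a basic helix-loop-helix transcription factor. It pairs with E proteins, binds E-box motifs (CANNTG), and is known for driving epithelial cells to a mesenchymal state, with loss of E-cadherin, and for its need in the mesenchyme of the embryonic head. A ChIP-seq peak is a place where more precipitated fragments overlap than a local background predicts. That background is read from input chromatin, whose fragments over a stretch of genome follow how much of that DNA the cells hold, how it shears and how well reads can be placed in it. Which of these differed on chromosomes 14 and 17 was not tested.

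Each deposited peak carries a fold enrichment and a −log10 p, which together fix the pileup (the number of overlapping fragments at the summit) and the background. Solved this way, 100% of the pileups in both lists lay no more than 0.05 from a whole number. The genome-wide background, the lowest value that a peak's background can take, was 2.03 fragments in replicate 1 and 4.33 in replicate 2. Backgrounds are given below in multiples of it. Replicate 2 thus had more fragments behind each value, and the total read numbers were not used. Genes near the peaks are not named and no genomic sequence is printed, because no annotation or genome of the build, CanFam3.1, was used here.

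Peaks were listed more densely on chromosomes 14 and 17 than on nearly all other autosomes, in both replicates. Chromosome 17 held 41.9 peaks per Mb in replicate 1 (exact Poisson 95% interval 40.3 to 43.5) and 37.3 in replicate 2 (35.9 to 38.9), the highest of all 38 autosomes in both. Chromosome 14 held 36.1 (34.6 to 37.6) and 32.7 (31.3 to 34.2) and took place 3 in both, behind chromosome 1 at 37.5 and 33.1. The median of the other autosomes was 30.4 per Mb in replicate 1 and 24.5 in replicate 2.

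The excess did not lie in the weakest peaks alone. At q ≤ 0.05, chromosome 14 kept 833 peaks (38.0%) in replicate 1 and 708 (35.7%) in replicate 2, and chromosome 17 kept 1037 (38.7%) and 811 (33.9%). Over the whole lists that threshold was met by 34.0% and 33.7%, so the members' share was close to the background in replicate 2. In peaks per Mb at that threshold, chromosome 17 ranked first of 38 (16.2 and 12.7) and chromosome 14 second (13.7 and 11.7) in both replicates.

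**Figure D1:**
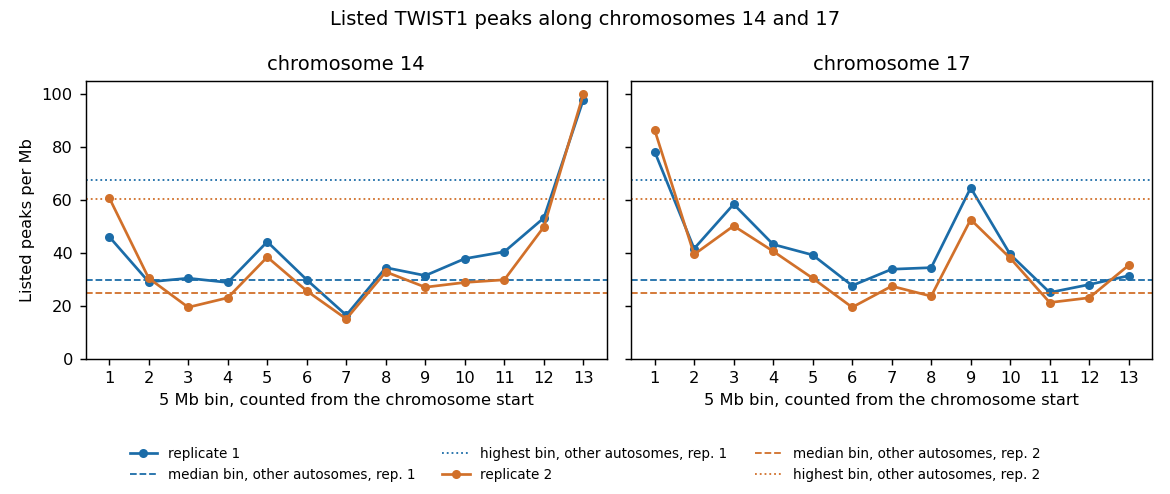
Listed peaks per Mb (y axis) in 5 Mb bins counted from the chromosome start (x axis) on chromosomes 14 and 17, with points for replicates 1 and 2 and lines for the median (dashed) and highest (dotted) bin of the other autosomes. The highest points are the last, short bin of chromosome 14 (97.9 and 100.0 per Mb) and the first bin of chromosome 17 (78.3 and 86.5).

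The density was far from even along either chromosome, and both replicates drew much the same profile. On chromosome 17 the first bin (0 to 5 Mb, of which the last 4.75 Mb count here) held 372 peaks in replicate 1 and 411 in replicate 2, or 78.3 and 86.5 per Mb. No bin of the other autosomes with at least 30 peaks in each replicate went above 67.7 and 60.3 per Mb. Both of those values came from bin 18 of chromosome 5, the last of that chromosome, whose last listed peak ended at 88.9 Mb. On chromosome 17 the bin at 40 to 45 Mb followed with 323 and 263 peaks, and that at 10 to 15 Mb with 292 and 251. The lowest on chromosome 17 were 50 to 55 Mb in replicate 1 (25 per Mb) and 25 to 30 Mb in replicate 2 (19.4).

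Chromosome 14 was densest at its ends. Its last bin, only 0.95 Mb long, held 93 and 95 peaks (97.9 and 100.0 per Mb), and its first held 219 and 289. Over a like length, the step at 3 to 4 Mb of chromosome 17 held 116 and 119 peaks. On chromosome 14 the fewest peaks lay at 30 to 35 Mb, with 82 and 75 (16.4 and 15 per Mb). Across the 13 bins of each chromosome, Spearman's rho between the replicates' densities was 0.86 on chromosome 14 and 0.96 on chromosome 17. Bins of one chromosome share libraries and neighbours, so these values are descriptions.

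**Figure D2:**
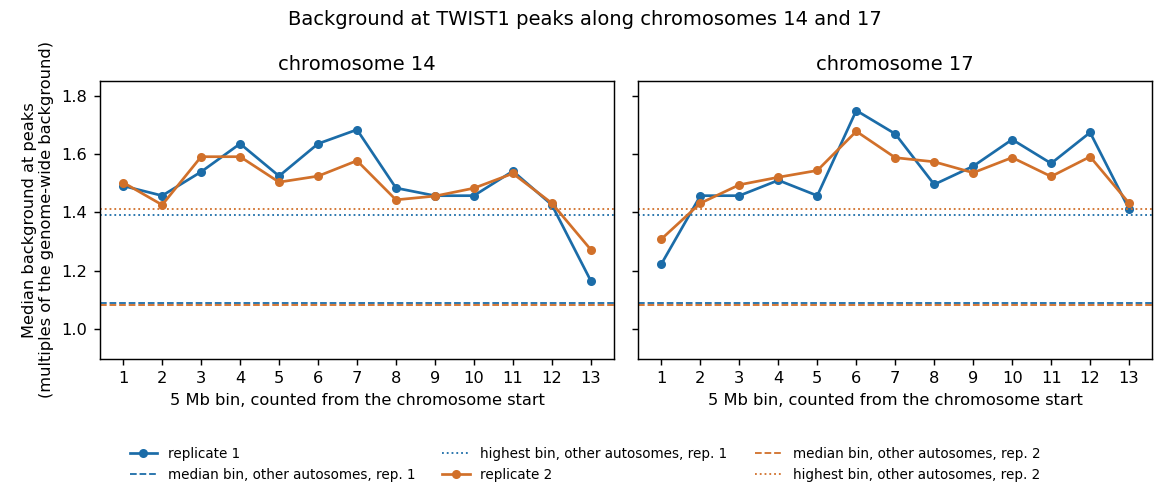
Median background at the peaks, in multiples of the genome-wide background (y axis), in 5 Mb bins counted from the chromosome start (x axis), with points for the replicates and lines for the median (dashed) and highest (dotted) bin of the other autosomes. Most bins of both chromosomes lie above the dotted lines at 1.39 (replicate 1) and 1.41 (replicate 2), and the last bin of chromosome 14 and the first of chromosome 17 lie below them.

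The raised background, the value that chose these chromosomes, ran along both of them but faded at an end of each. Over the 26 bins the median background was between 1.17 and 1.749 times the genome-wide value in replicate 1, and between 1.27 and 1.68 in replicate 2. The median bin of the other autosomes stood at 1.09 and 1.08. Every one of the 26 bins was above that median in both replicates. Peaks whose background sat at the genome-wide value made up 4.29% and 1.87% of chromosome 14 and 4.66% and 2.89% of chromosome 17. On the other autosomes the lowest such share was 15.3% in replicate 1 and 11.4% in replicate 2.

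The lowest bin was the last of chromosome 14, at 1.17 in replicate 1 and 1.27 in replicate 2. On chromosome 17 it was the first, at 1.22 and 1.31. The highest bins were 25 to 30 Mb of chromosome 17 (1.749 and 1.68) and, on chromosome 14, 30 to 35 Mb in replicate 1 (1.68) and 15 to 20 Mb in replicate 2 (1.59, as at 10 to 15 Mb). Bins with many peaks tended to have the lower background. Spearman's rho between density and background over the 13 bins was −0.63 and −0.74 on chromosome 14 and −0.56 and −0.68 on chromosome 17 for replicates 1 and 2.

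Steps of 1 Mb, chosen after the bins had been seen, showed the change near the start of chromosome 17 in more detail. Its first Mb (from 250 kb on) stood at the genome-wide value, with a median of 1.0 in both replicates (28 and 39 peaks). The second stood at 1.05 and 1.16, the third at 1.29 and 1.39, the fourth at 1.21 and 1.31, the fifth at 1.40 and 1.47 and the sixth at 1.21 and 1.34. The level thus went up over the first 3 Mb and then varied. At the other end of chromosome 14, the median fell from 1.40 and 1.42 at 58 to 59 Mb to 1.18 and 1.33 at 59 to 60 Mb and 1.17 and 1.27 beyond. A background below the genome-wide value would not show in these files.

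The start of chromosome 14 was uneven on a finer scale. Peaks between 2 and 3 Mb (73 in replicate 1 and 104 in replicate 2) had a median background of 2.34 and 2.45 times the genome-wide value, and 5 of them per list overlapped a peak of the other list. Between 4 and 5 Mb the median was 1.18 and 1.26. Closer to the start, a block of peaks at 5 or more times the genome-wide background reached inwards past the 250 kb limit. It held 12 peaks in replicate 1, the last ending at 365904, and 22 in replicate 2, the last ending at 363878.

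Those peaks were tall and weakly enriched. In replicate 1 their pileups ran from 27 to 52 fragments over backgrounds of 6.02 to 11.7 times the genome-wide value, with folds of 1.77 to 2.62. In replicate 2 pileups were 38 to 82 over 5.0 to 12.7 times, with folds of 1.48 to 2.11. Of the 12 peaks 7 had a partner, and of the 22 peaks 8. The 250 kb limit cut through this block: in replicate 1 the last peak outside it had a fold of 2.31 at 6.12 times the genome-wide background, and the next one inside had 2.47 at 7.29 times. On chromosome 17 the peaks on either side had backgrounds of 1.17 (outside) and 1.0 (inside) in replicate 1, and 1.43 and 1.0 in replicate 2.

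Over a raised background the same fold enrichment takes more fragments, and the same pileup gives less fold. At the genome-wide background a fold of 5 needs a pileup of 15 in replicate 1 and 26 in replicate 2. At 1.5 times that background it needs 20 and 37. The smallest pileup that reaches the lowest listed p rises likewise from 6 to 8 and from 10 to 13. Pileup and background were solved from fold and p, so the listed peaks are bound by this arithmetic and give it no test. The median pileup was 11 fragments on both chromosomes in replicate 1, against 9 for the median other autosome, and 18 on both in replicate 2, against 14. No other autosome had a median above 10 or 15.

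Fold enrichment stood the other way round. Its median was 2.96 on chromosome 14 and 2.98 on chromosome 17 in replicate 1, below each of the other autosomes, which ran from 2.99 to 3.20. In replicate 2 both stood at 2.48, with the others from 2.63 to 2.75. Peaks were slightly wider, with median widths of 202 and 205.5 bp in replicate 1, against 197 bp for the median other autosome, and 201 bp on both chromosomes in replicate 2, against 196 bp.

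The 2 chromosomes' part of the autosomal peaks therefore depended on which measure of strength sorted them. They held 7.11% of all autosomal peaks in replicate 1 and 7.82% in replicate 2, on 5.69% of the span. Sorted by −log10 p, their part stayed between 6.79% and 9.16% in every class of replicate 1 and between 6.82% and 9.27% in replicate 2. Sorted by fold, it went from 13.5% at a fold of 2 to 2.5 down to 6.21% at 3 to 4 in replicate 1, and from 11.7% to 4.03% in replicate 2. Sorted by pileup, it went from 1.35% at 6 or 7 fragments to 18.9% at 12 to 14 in replicate 1, and back to 9.60% at 50 or more. In replicate 2 it went from 0.837% at 10 to 12 fragments to 32.3% at 20 to 24, and back to 11.8% at 60 or more.

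**Figure D3:**
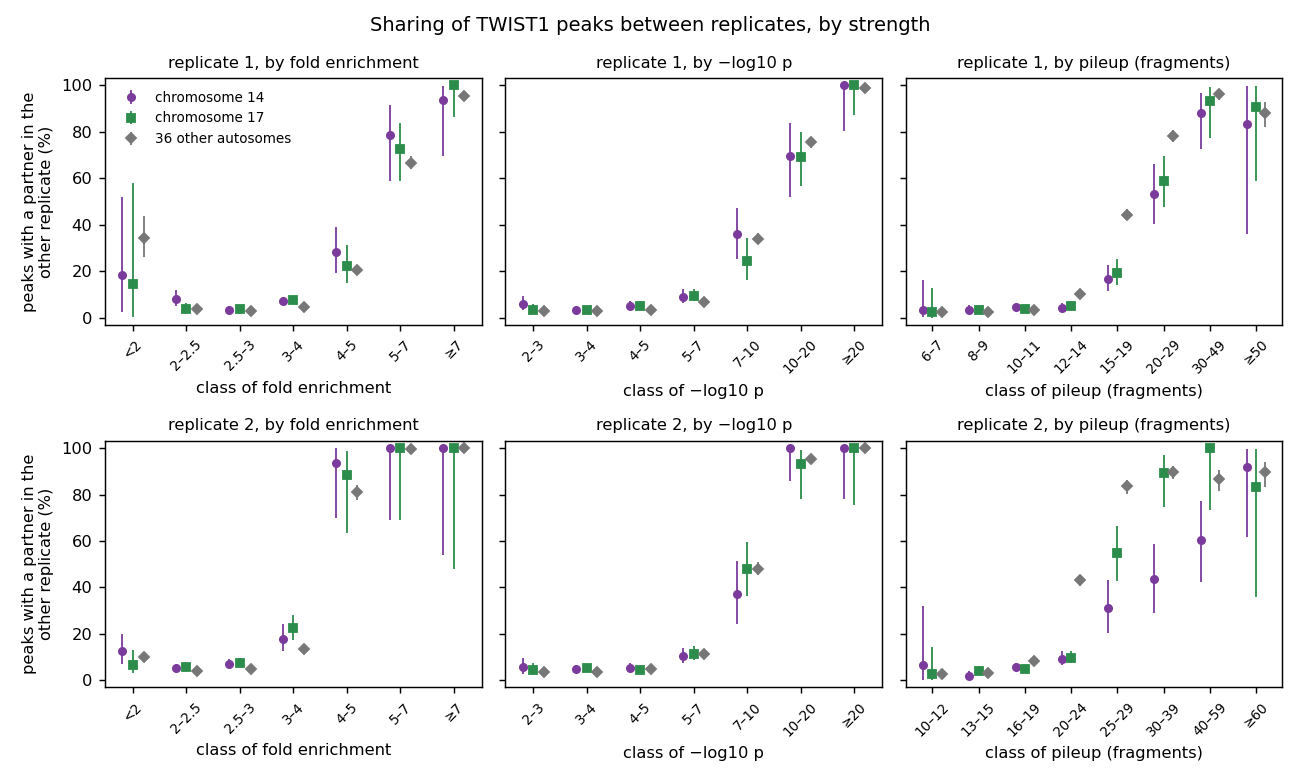
Percent of peaks with a partner in the other replicate (y axis; bars are exact binomial 95% intervals) in classes of fold enrichment, −log10 p and pileup (x axes), for chromosome 14, chromosome 17 and the 36 other autosomes together, replicate 1 above and replicate 2 below. In the pileup class of 20 to 24 fragments of replicate 2, chromosomes 14 and 17 lie near 9.40% and 9.81% and the other autosomes at 43.0%. Median −log10 p also differed in that class, at 5.45 and 5.30 against 7.06.

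Few of these peaks recurred in the repeat experiment, and about as few as elsewhere. A partner, meaning a peak of any strength in the other list that overlapped by at least 1 bp, was found for 399 of 4873 peaks in replicate 1 (8.19%) and 398 of 4375 in replicate 2 (9.10%), against 6.75% and 8.33% on the other autosomes. Among peaks with q ≤ 0.05 the share was 15.1% on chromosome 14 (exact binomial 95% interval 12.8 to 17.7) and 15.4% on chromosome 17 (13.3 to 17.8) in replicate 1. It was 15.8% (13.2 to 18.7) and 17.6% (15.1 to 20.4) in replicate 2. The median of the other autosomes was 13.8% and 16.8%, and single ones ran from 8.46% to 23.8% and from 9.07% to 34.0%, so both chromosomes lay well inside the spread. The intervals treat peaks as independent and cover counting error only.

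Between folds of 2 and 7, the share of peaks with a partner was higher on chromosomes 14 and 17 together than elsewhere in every fold class of both replicates, by margins that varied. Taken singly, chromosome 17 was not higher at a fold of 2 to 2.5 in replicate 1. It stood there at 3.55% of 310 peaks, chromosome 14 at 8.12% of 271, and the other autosomes at 3.81%. At a fold of 2.5 to 3 in replicate 1 the share on both together was 3.58% (2.81 to 4.48) against 3.05% (2.84 to 3.27), with overlapping intervals. Below a fold of 2 it was not higher, at 3 of 18 peaks against 41 of 119 in replicate 1, and 9.66% against 9.88% in replicate 2. In the class of fold 3 to 4 the share was 7.21% of 1941 peaks in replicate 1 (6.10 to 8.46), against 4.44% of 29300 on the other autosomes (4.204 to 4.68). Both chromosomes, at 6.96% and 7.41%, lay above each of the 36 others, the highest of which reached 5.61%. In replicate 2 it was 20.5% of 429 peaks (16.8 to 24.6) against 13.3% of 10225 (12.6 to 13.95), within the range of single autosomes of 6.05% to 26.4%. The members' median −log10 p in that class was 4.86 and 6.53, against 4.47 and 5.49.

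At equal −log10 p the direction depended on the class. Below 5 the share was higher on chromosomes 14 and 17 together in every class of both replicates, by small margins. Between 4 and 5 it was 4.92% (3.83 to 6.21) against 3.45% (3.19 to 3.73) in replicate 1. In replicate 2 it was 4.96% (3.82 to 6.31) against 4.79% (4.46 to 5.12), where chromosome 14 alone stood at 5.44% and chromosome 17 alone at 4.55%, below the others. From 5 on the direction was mixed. Between 5 and 7 the share was 9.29% (7.44 to 11.4) on chromosomes 14 and 17 together, against 6.76% (6.30 to 7.23) in replicate 1, and 10.9% (8.91 to 13.2) against 11.5% (10.8 to 12.2) in replicate 2. Between 7 and 10 it was 29.5% (22.9 to 36.9) against 34.0% (31.7 to 36.2), and 43.5% (34.9 to 52.4) against 48.1% (45.5 to 50.8). In replicate 1 the 2 chromosomes fell on either side of the others in that class, chromosome 14 at 35.8% and chromosome 17 at 24.2%. Between 10 and 20 the share on both together was 69.2% (59.4 to 77.9) against 75.5% (73.0 to 77.9) in replicate 1. In replicate 2 it was 96.3% (87.3 to 99.5) against 95.4% (93.6 to 96.8), with chromosome 14 at 100% and chromosome 17 at 93.3%. Above 20 all 44 peaks of replicate 1 and all 28 of replicate 2 had a partner, as did 498 of 503 and 288 of 288 elsewhere.

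At equal pileup the picture depended on the class. Up to 11 fragments in replicate 1, where most peaks of both chromosomes lie, shares were low everywhere and slightly higher on chromosomes 14 and 17. At 10 or 11 fragments they were 4.40% (3.13 to 5.99) and 3.58% (2.52 to 4.92), against 3.24% (2.99 to 3.51) elsewhere. From 12 to 49 fragments in replicate 1 and from 16 to 29 in replicate 2, both chromosomes lay below the others in every class. In the class of 20 to 29 fragments of replicate 1, 53.2% of 62 peaks on chromosome 14 and 59.0% of 83 on chromosome 17 had a partner, against 78.2% of 1098 elsewhere (75.7 to 80.6). In the class of 20 to 24 of replicate 2 the shares were 9.40% of 383 and 9.81% of 520, against 43.0% of 1891 (40.7 to 45.3). Peaks of equal pileup were not equally strong by the other measures. In that class the median −log10 p was 5.45 and 5.30, against 7.06, and the median fold 2.79 and 2.72, against 3.38. The 2 chromosomes differed from each other at 30 to 39 fragments in replicate 2. There 20 of 46 peaks of chromosome 14 had a partner (43.5%, 28.9 to 58.9), against 33 of 37 on chromosome 17 (89.2%, 74.6 to 97.0), beside median backgrounds of 2.76 and 1.99 times the genome-wide value. At 40 to 59 fragments they were 20 of 33 and 12 of 12, against 86.7% elsewhere (81.7 to 90.7). Every peak of chromosome 14 without a partner in the class of 40 to 59 lay between 251599 and 354638. Their backgrounds were 4.93 to 8.11 times the genome-wide value, so that gap came from the start of the chromosome alone. In the class of 30 to 39 fragments the only peak of the block at 5 or more times lay at 285046 to 285207. It had a pileup of 38 and no partner. The source of the gap in that class was not tested.

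In classes of equal background the order also depended on the class. Up to 1.25 times the genome-wide value the replicates went opposite ways. Peaks at the genome-wide value itself had a partner in 4.57% of 219 cases on chromosomes 14 and 17 (2.21 to 8.24) against 3.81% elsewhere in replicate 1, and in 2.83% of 106 (0.588 to 8.05) against 4.90% in replicate 2. In every class above 1.25 times, the share was lower on chromosomes 14 and 17 in both replicates. Where the background was 1.5 to 1.75 times the genome-wide value, 5.43% of 1364 peaks on chromosomes 14 and 17 had a partner in replicate 1 (4.28 to 6.76), against 20.8% of 2857 on the other autosomes (19.4 to 22.4). In replicate 2 it was 6.95% of 1324 (5.64 to 8.45) against 22.4% of 1325 (20.2 to 24.8). The median fold in that class was 2.88 against 2.86 in replicate 1, and 2.43 against 2.28 in replicate 2, where the median −log10 p was 4.07 against 3.52. The class held 28.0% and 30.3% of the peaks of chromosomes 14 and 17, and 4.49% and 2.57% of those elsewhere.

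Overlapping peaks with q ≤ 0.05 in both replicates were merged into consensus regions, 91 on chromosome 14 and 116 on chromosome 17, of 2666 on the autosomes. That is 1.499 per Mb on chromosome 14 (exact Poisson 95% interval 1.21 to 1.84) and 1.81 on chromosome 17 (1.497 to 2.17), sixth and first of 38, where the median of the others was 1.20 and the highest 1.73 (chromosome 5). Regions with a fold of at least 5 in both replicates numbered 14 and 15, or 0.231 and 0.234 per Mb, close to the median of 0.202 and ranking 15th and 14th. Of all 91 and 116 regions, 2 on chromosome 14 and 0 on chromosome 17 lay, in either replicate, over a background that reached 5 genome-wide multiples.

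Bins with many listed peaks did not always hold many consensus regions. On chromosome 17 the first bin held 4 consensus regions, and the bin at 40 to 45 Mb, with 323 and 263 listed peaks, held 1. The bin at 25 to 30 Mb, among the sparsest in peaks (138 and 97), held 13, with 3 of them at a fold of at least 5 in both replicates. The most, 15, lay at 20 to 25 Mb. On chromosome 14 the most regions lay at 15 to 20 Mb and 40 to 45 Mb (13 each) and at 0 to 5 Mb (12), a bin that was also dense in listed peaks. The bin at 40 to 45 Mb held 5 of the 14 regions with a fold of at least 5. Spearman's rho between listed peaks and consensus regions per Mb over 13 bins was −0.08 and −0.05 on chromosome 14, and −0.35 and −0.49 on chromosome 17, for the peaks of replicates 1 and 2.

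**Figure D4:**
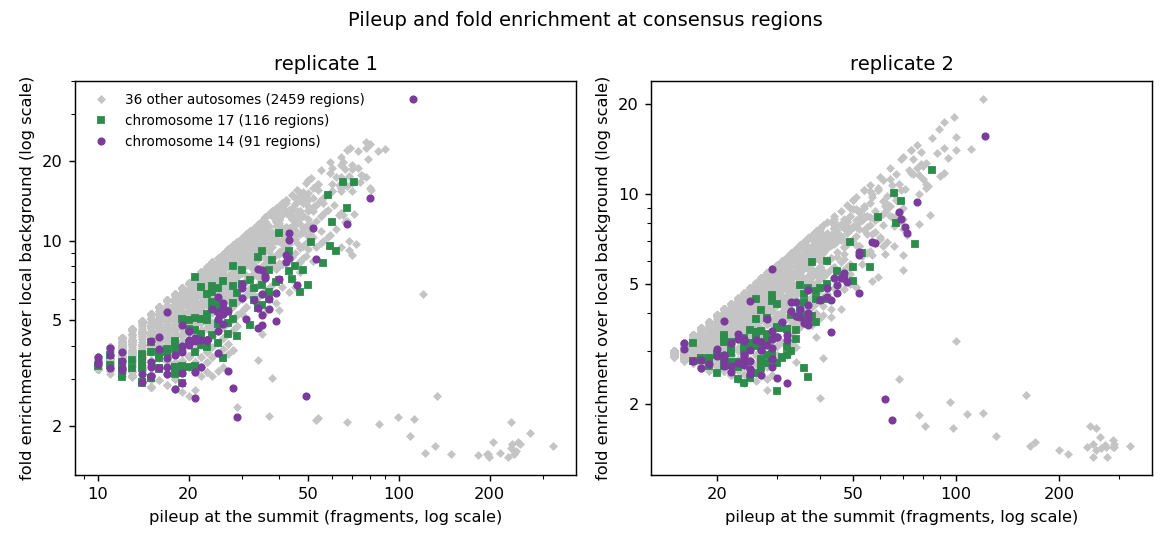
Fold enrichment over the local background (y axis, log scale) against pileup at the summit (x axis, log scale) at each consensus region, for replicate 1 (left) and replicate 2 (right), with chromosomes 14 (91 regions) and 17 (116) over the 36 other autosomes (2459). Points of both chromosomes lie mostly along the lower edge of the main cloud, with higher pileups for the same fold.

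Consensus regions on both chromosomes had taller pileups and lower folds than those elsewhere. Their median pileup was 23 fragments on chromosome 14 (quartiles 17 and 34.5) and 23.5 on chromosome 17 (17 and 33.25) in replicate 1, against 20 (15 and 28) on the other autosomes. In replicate 2 it was 29 (24 and 42) and 28 (24 and 35.25) against 24 (19 and 31). Among single other autosomes chromosome 32 had the highest median pileup. It was 24 in replicate 1, above both, and 28 in replicate 2, level with chromosome 17. In multiples of the genome-wide one, median backgrounds on chromosomes 14 and 17 were 2.04 and 1.89 against 1.46 in replicate 1. In replicate 2 they were 1.80 and 1.73 against 1.27. The gap in background was thus wider than the gap in pileup.

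The median fold came out at 4.29 on chromosome 14 (quartiles 3.47 and 5.98) and 5.02 on chromosome 17 (3.62 and 6.75) in replicate 1, against 5.22 (3.96 and 7.24). In replicate 2 it was 3.29 (2.83 and 4.42) and 3.28 (2.83 and 4.10) against 3.68 (3.12 and 4.78). Chromosome 14 ranked 37th of 38 in both replicates, and chromosome 17 26th in replicate 1 and 38th in replicate 2. With the genome-wide background in place of the local one, the order reversed. The medians were then 7.93 and 8.10 against 6.94 in replicate 1, and 5.63 and 5.44 against 4.69 in replicate 2.

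Counts past a threshold moved with that choice. A fold of at least 5 in both replicates was reached by 15.4% of the regions of chromosome 14 and 12.9% of those of chromosome 17, against 18.6% elsewhere. Over the genome-wide background it was reached by 62.6% and 66.4%, against 40.9%. Of the 200 strongest autosomal regions by the lower of the replicates' folds, 13 lay on these chromosomes (6.5%), and 25 (12.5%) when the folds were taken over the genome-wide background. Among the 50 strongest the numbers were 3 and 2, in the other direction. They held 7.76% of all autosomal regions.

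In width and in the distance between summits the regions were like those elsewhere. Their median width was 388 bp on chromosome 14 and 381 bp on chromosome 17, against 384 bp. The replicates' summits lay a median of 37 and 40.5 bp apart, against 40 bp. Replicate 1 gave the higher fold at 71 of 91 regions and 106 of 116 (78.0% and 91.4%), against 84.2%. On the log2 scale replicate 1 exceeded replicate 2 in fold by a median of 0.34 (SD 0.51 across regions) and 0.47 (SD 0.43), against 0.44 (SD 0.49).

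No consensus region of chromosomes 14 and 17 was called as different in pileup between the experiments. Each region's pileups were set against the split over all 2809 consensus regions of the genome, of which replicate 1 held 45.1%, with a two-sided exact binomial test and Benjamini-Hochberg adjustment over those regions. The test called 0 of 91 and 0 of 116 regions, where 0.107% were called over the genome. At an unadjusted p under 0.05 there were 9 on chromosome 14 (9.89%) and 3 on chromosome 17 (2.59%), beside 230 of all 2809 (8.19%), and the smallest adjusted p was 0.102 and 0.183. Replicate 1 held 43.9% of the summed pileups on chromosome 14 and 46.3% on chromosome 17. On single other autosomes that share ran from 44.1% to 49.9%, so chromosome 14 lay just below all of them. With 1 library on each side, these p-values speak of the libraries alone. Consensus regions had to pass q ≤ 0.05 in both replicates first, so sites that passed in a single replicate were never tested. With so few regions called over the genome, 0 calls do not set these chromosomes apart.

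**Figure D5:**
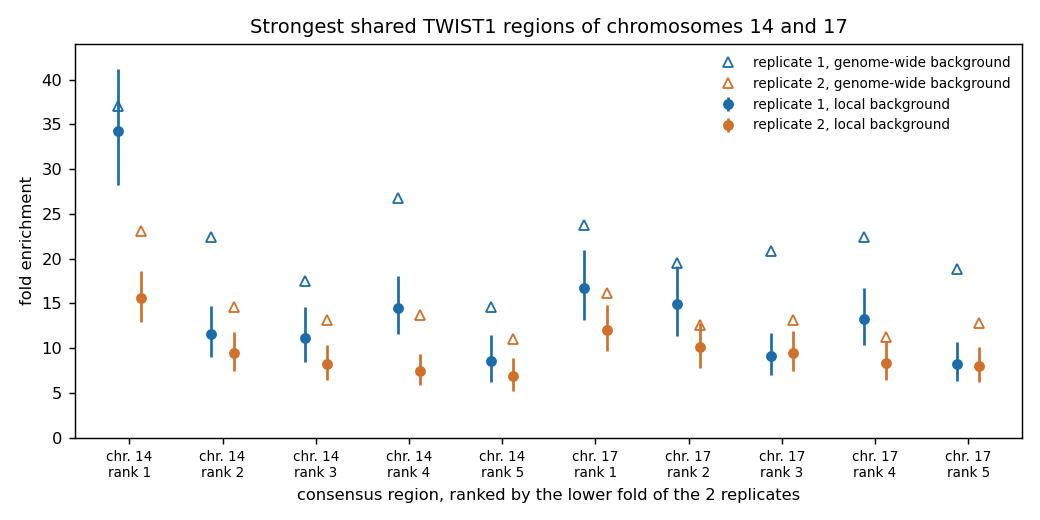
Fold enrichment (y axis) of the 5 strongest shared regions of each chromosome (x axis, ranked by the lower of the replicates' folds), over the local background (circles, with exact Poisson 95% intervals of the pileup) and over the genome-wide background (triangles). Only the first region of chromosome 14 reaches a fold above 30 in a replicate, and triangles stand above circles at all 10 regions.

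The strongest shared region of chromosome 14 stood well apart from the rest of that chromosome. It lay at 4992545 to 4993285, in the stretch between 4 and 5 Mb where the median background was low. Its pileups were 111 fragments in replicate 1 and 122 in replicate 2, and its summits lay 3 bp apart. The local background was 1.12 times the genome-wide value in replicate 1 and 1.59 in replicate 2, which gave folds of 34.3 (exact Poisson 95% interval 28.2 to 41.2) and 15.6 (12.97 to 18.6). Over the genome-wide background the folds were 37.02 and 23.1. Among autosomal regions it ranked 4th by the lower local fold and 23rd by the lower genome-wide fold.

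The next region of chromosome 14, at 41845128 to 41845613, had pileups of 67 and 77 and folds of 11.6 (9.02 to 14.7) and 9.45 (7.48 to 11.8), over backgrounds of 2.41 and 1.68. The third, at 21523065 to 21523630, had pileups of 52 and 69 and folds of 11.2 (8.40 to 14.6) and 8.23 (6.43 to 10.4). In both the intervals of the replicates overlapped.

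At 39952839 to 39953262, the fourth region, replicate 1 had the larger pileup, 80 against 72, and a fold of 14.5 (11.6 to 18.03) against 7.44 (5.84 to 9.34). As at the first region, these intervals did not overlap, yet the split of the pileups was not called. Here p was 0.073 by the two-sided exact binomial test (adjusted p = 0.675). The backgrounds were 2.26 and 2.04 times each list's genome-wide value, which is 4.58 fragments in replicate 1 and 8.82 in replicate 2. The fifth, at 39185088 to 39185567, lay less than 1 Mb away, with pileups of 43 and 58 and folds of 8.57 (6.26 to 11.5) and 6.88 (5.25 to 8.86). It moved from place 174 among autosomal regions by local fold to 121 by genome-wide fold.

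On chromosome 17 the strongest shared region, at 18111111 to 18111908, had pileups of 71 and 85 and folds of 16.7 (13.1 to 21.0) and 12.05 (9.65 to 14.9). Its backgrounds of 1.64 and 1.42 were close to the chromosome's usual level. The second lay near the chromosome's end, at 62709275 to 62709772, with pileups of 58 and 66 and folds of 14.9 (11.4 to 19.2) and 10.1 (7.83 to 12.8). They were the only regions of chromosome 17 with a fold of at least 10 in both replicates.

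The third region of chromosome 17, at 8879826 to 8880260, was the single one of the 10 named here with the higher fold in replicate 2. Its folds were 9.13 (7.03 to 11.7) and 9.46 (7.39 to 11.9), from pileups of 62 and 69 over backgrounds of 2.92 and 1.48. The fourth, at 39262444 to 39263103, had folds of 13.2 (10.3 to 16.8) and 8.37 (6.40 to 10.75) from pileups of 67 and 59, with summits 1 bp apart. The fifth, at 28059986 to 28060478, had folds of 8.26 (6.27 to 10.7) and 8.02 (6.24 to 10.2) from pileups of 56 and 67. In all 10 regions the summits of the replicates lay between 1 and 50 bp apart.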

How the data were processed

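Bowtie2, Picard, MACS2 and the build CanFam3.1 stand in the submitters' processing notes. Versions, filters and the input behind each list were not given in those sources. The deposited narrowPeak lists, 1 per TWIST1 library, give per peak a fold enrichment (a ratio at the summit, with 1 added to pileup and background), −log10 p and −log10 q values of a Poisson test, a score equal to 10 times the −log10 p, and the summit offset, a distance in bases and another unit. The lowest deposited −log10 p was 2.01 in replicate 1 and 2.004 in replicate 2. The deposited score was not used further. Input libraries entered only through the background.

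Pileup and background were solved from the deposited fold and −log10 p with no whole number assumed, and each list's smallest background stood for the genome-wide one. A chromosome's span ran from 250 kb to its last listed peak. Consensus regions were merged overlaps of at least 1 bp between peaks with q ≤ 0.05 in both replicates, with values from the peak of lowest p in each. Bins were 5 Mb; comparison bins held at least 30 peaks in each replicate. The rule named the 5 regions per chromosome whose lower fold of the pair was highest, and the extreme bins. Members, classes and lists were chosen with earlier results of these data known. Alternatives changed the q threshold, overlap rule, peaks counted and background. Computations were tested on simulated data with seed 7 and used Python 3.11.15, numpy 2.4.6, scipy 1.17.1, pandas 2.3.3 and matplotlib 3.10.9.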

Additional observations from a re-analysis of the deposited data

How the results depend on the processing

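Of 56 alternative values, 41 stayed within the spread of the replicates or the counting interval, 13 moved and 2 reversed. The 41 include all values with a replicate left out. Each of 2 values always lies within their own SD of their mean, so these could not move and say nothing about stability. The reversed ones were the fold at consensus regions relative to the other autosomes, as a log2 ratio of medians averaged over the replicates: with the genome-wide background it was 0.23 in place of −0.22 on chromosome 14, and 0.22 in place of −0.11 on chromosome 17, which follows from dividing by another background. Leaving out a replicate gave −0.29 to −0.16 and −0.16 to −0.06 for these folds. The pileup ratio of chromosome 17 was 0.16 at q ≤ 0.01 in place of 0.23. Peaks per Mb on chromosome 14 were 1.37 times the median of the other autosomes at q ≤ 0.05, in place of 1.26 (1.19 to 1.33 without a replicate). The median background was 1.4995 on chromosome 14 at q ≤ 0.05, 1.48 above it and 1.58 as a mean without backgrounds of 5 or more times, in place of 1.49, and on chromosome 17 it was 1.51465 at q ≤ 0.05 and 1.55 as that mean, in place of 1.51. The share of peaks with a partner, 15.5% on chromosome 14 and 16.5% on chromosome 17, was 12.4% and 14.2% with a reciprocal overlap of 50%, 12.7% and 12.9% with summits within 100 bp, and 27.5% and 30.1% at q ≤ 0.01. No consensus region of the 2 chromosomes was called by the binomial test under either alternative. No paired analysis was possible because only the TWIST1 libraries have peak lists, which leaves 1 group. Consensus regions need both replicates, so their number has no value without one. Intervals cover counting error only, and the 2 lists differ in depth.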

Other observations

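By −log10 p, the strongest peaks of the 2 chromosomes without a partner had lower folds in replicate 2 than in replicate 1. They were picked out after their values were seen. In replicate 1 they were the peak at 56999990 to 57000289 on chromosome 17, with a pileup of 33 and a fold of 6.88, and that at 43776097 to 43776504 on chromosome 14, with a pileup of 26 and a fold of 7.48. In replicate 2 they were the peaks at 56146738 to 56147003 on chromosome 17, with a pileup of 31 and a fold of 4.09, and at 1963520 to 1963722 on chromosome 14, with a pileup of 24 and a fold of 3.82. Folds were lower in replicate 2 among all listed peaks too. Their median was 2.48 on both chromosomes, against 2.96 and 2.98 in replicate 1.

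Near 15.6 Mb on chromosome 17 each list held a tall, weakly enriched peak, and the peaks lay side by side without overlapping. That of replicate 1, at 15627445 to 15627610, had a pileup of 109 over a background 32.9 times the genome-wide value, and a fold of 1.62. That of replicate 2, at 15627668 to 15627863, had a pileup of 98 over 12.1 times, and a fold of 1.86.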
